A study of Gallus gallus with 2 samples.

Results

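Neural tube progenitors, the dividing cells that line the embryonic spinal cord, were examined in a pooled single-cell table from the posterior end of chicken embryos. Cells were kept when they held at least 4000 gene molecules, of which at most 20% came from mitochondrial genes. A kept cell was counted as a progenitor when SOX2, SOX1 and SOX21 together reached at least 4 molecules per 10000, TBXT stayed under 2 and SOX10 with FOXD3 stayed under 2. This gave 1255 progenitors among 12336 kept cells, or 10.2% (95% exact binomial interval 9.65 to 10.7%), and 11081 other kept cells. With at most 10% mitochondrial molecules the share was 15.6%. The whole table held 60000 cell barcodes.

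The embryos (genotype labelled WT) were incubated for 72 h to the 35-somite stage, and the groups were controls and embryos treated with homocysteine, 20 uL of either a high (19 mM) or a low (0.5 mM) solution. Homocysteine is an amino acid formed from methionine, and its metabolism is tied to folate, a vitamin needed for neural tube closure. The posterior tissue was dissociated with Accutase for 15 min at 37 °C, marked with lipid-anchored DNA barcodes at 200 nM, pooled, and captured on the BD Rhapsody microwell system. No label pairs a barcode with a treatment, so control and homocysteine-treated cells were not compared, and the table counted as 1 sample with no replicates. All intervals below are 95% intervals, cover counting error only, and carry no p-value.

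SOX2 and SOX1 are SOXB1 transcription factors that keep neural cells in a dividing progenitor state, while SOX21 is a SOXB2 factor linked to their exit from it. Sonic hedgehog from the notochord and floor plate patterns the ventral neural tube, and BMP and WNT signals from the roof plate pattern its dorsal side, so that progenitors come to express different factors by position. At the tail end, FGF and WNT signals hold cells in an early state, and retinoic acid from the somites promotes their maturation.

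The 3 SOX genes, which chose the cells and are given as a description, summed to a median of 10.7 molecules per 10000 in progenitors, with a range of 4.00 to 37.5. Levels summed over cells are given as CPM, molecules per 1000000 gene molecules. SOX21 stood at 521 CPM in progenitors and 19.1 CPM in other kept cells. SOX2 stood at 393 and 28.1 CPM, and SOX1 at 154 and 3.62 CPM. When every cell was thinned to 4000 molecules, SOX21 was found in 79.2% of progenitors, SOX2 in 77.8% and SOX1 in 40.1%. As the rule required these genes, their levels are no check of the name. The 397 endothelial-marker cells used below as the cells that should lack neural genes were chosen with a SOX sum under 1, so their own SOX shares are no background either. Those cells had a median depth of 30311 molecules, against 30644 in progenitors. Without thinning, the shares in progenitors were 96.8%, 98.2% and 80.0%. After thinning, 331 progenitors showed all 3 SOX genes, 596 showed 2, 289 showed 1 and 39 showed 0.

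The threshold did not fall in a gap of the distribution. There were 116 progenitors with a sum of 4 to 5, and 126 cells just outside, with a sum of 3 to 4 and the other conditions met. SOX2 stood at 221 CPM just inside and 182 CPM just outside, SOX21 at 177 and 128 CPM, and SOX1 at 53.9 and 36.5 CPM. Of 1439 kept cells with a sum of at least 4, the TBXT condition removed 177, and SOX10 with FOXD3 alone removed 7.

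**Figure D1:**
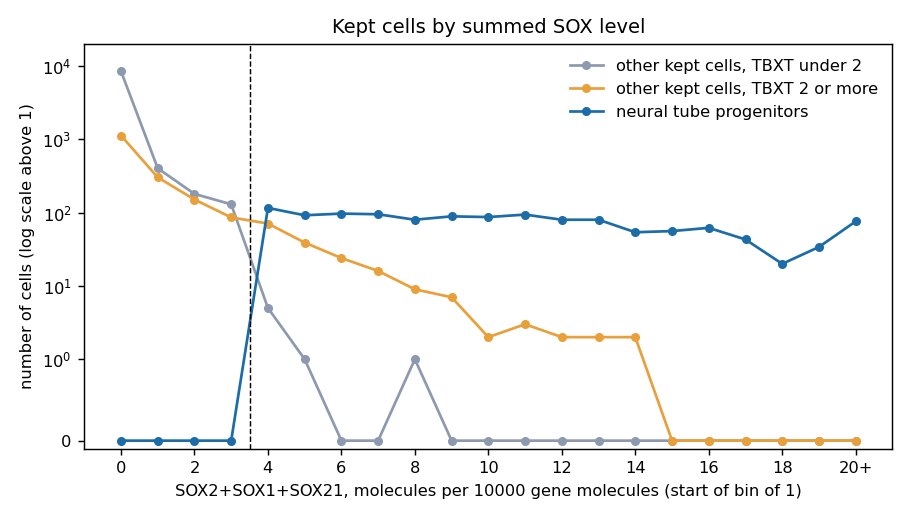
Number of kept cells (vertical axis, log scale above 1) by the sum of SOX2, SOX1 and SOX21 in molecules per 10000 gene molecules (horizontal axis). Lines stand for the 1255 progenitors and for other kept cells with TBXT at 2 or more or under 2. The dashed line marks the threshold of 4, and progenitors number 116 in the first bin above it.

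Progenitors had a median of 6244 detected genes and 11.9% mitochondrial molecules. Of them, 303 (24.1%) held over 50000 molecules and 27 (2.15%) carried at least 2 lipid barcodes above 5 times background. No doublet caller was run, so some progenitors may be pairs of cells.

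The first question was which genes set progenitors apart from the other kept cells. The naming rule over all genes left out the 3 SOX genes and required at least 1000 molecules. Among the genes it took, the largest ratios were those of OLIG2, PAX6, FAM181A, IRX1 and HES5. Of 18691 genes with at least 100 molecules, 617 were over 2-fold higher in progenitors (3.3%) and 1875 were over 2-fold lower (10%). The lower genes numbered 1091 with at most 10% mitochondrial molecules. The median log2 ratio over these genes was -0.04. Within each of the 3 lipid barcodes taken separately, 361 genes were over 2-fold higher (1.93%) and 730 over 2-fold lower (3.91%).

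HES5 is a Notch target that represses neuronal differentiation. The chicken genome has related HES5 copies, so reads may be shared between them. HES5 stood at 1333 CPM in progenitors of lipid barcode SBC2, 1730 in SBC3, 1088 in SBC7 and 1303 in progenitors without an assigned barcode. Over all progenitors it reached 1397 CPM against 58.2 CPM in other kept cells, a ratio of 24.0 (23.6 to 24.4). All 4 sets of progenitors lay far above the other cells. Among single progenitors the HES5 level ran from 0 through a median of 9.74 to 122 molecules per 10000, and a molecule was present in 1148 of them. HES5 was not restricted to progenitors, since thinned detection was 82.7% in them and still 27.7% in endothelial-marker cells.

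PAX6 (GRCg7b chromosome 5, 5398323 to 5415898), a factor of intermediate and ventral progenitors, stood at 123 CPM in SBC2, 135 in SBC3, 92.5 in SBC7 and 123 without a barcode. Its overall ratio was 28.3 (26.8 to 29.9), from 124 CPM against 4.37 CPM. Thinned detection was 34.7% in progenitors and 0 of 397 in endothelial-marker cells, which allows a share of up to 0.756%.

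OLIG2 (chromosome 1, 105274475 to 105276259) marks the progenitors of motor neurons. It had the largest ratio among genes with a symbol and at least 1000 molecules that ran the same way in each barcode. OLIG2 stood at 95.1 against 2.17 CPM, a ratio of 43.8 (40.7 to 47.1). Its level came from few cells. It stood at 35.4 CPM in SBC2, 135 in SBC3, 77.0 in SBC7 and 87.2 without a barcode, and a molecule was present in 161 of 1255 progenitors. In those cells the median was 2.25 and the highest 64.4 molecules per 10000.

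The other leading genes were FAM181A, IRX1, RFX4, CHL1, NKX6-2, GDPD4, HES6, POU3F3, COCH, TAGLN3, SCUBE2, NEUROG2, DBX2, ZIC1, ADGRD2, MYLK and LMO3. Their ratios ran from 8.65 for LMO3 to 27.4 for FAM181A. RFX4, a transcription factor of neural progenitors and their cilia, reached 140 CPM against 6.25, with 94.8 to 146 CPM over the 4 progenitor sets. IRX1, an Iroquois homeobox factor, reached 77.1 against 2.89 CPM. CHL1, a neural cell adhesion molecule, reached 32.6 against 1.52 CPM. The rule that named the 20 leading genes required the same direction in each of the 3 barcodes. Of them, 18 were found in under 2% of thinned endothelial-marker cells. Not all were low in the 112 neural crest cells, which had SOX10 with FOXD3 at 2 or more and TBXT under 2. GDPD4 stood at 29.5 CPM in these crest cells against 34.9 in progenitors, and HES6 at 25.2 against 30.7. NEUROG2 was higher in crest cells, at 53.6 against 25.5 CPM. The other leading genes were over 2-fold lower in crest cells than in progenitors.

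**Figure D2:**
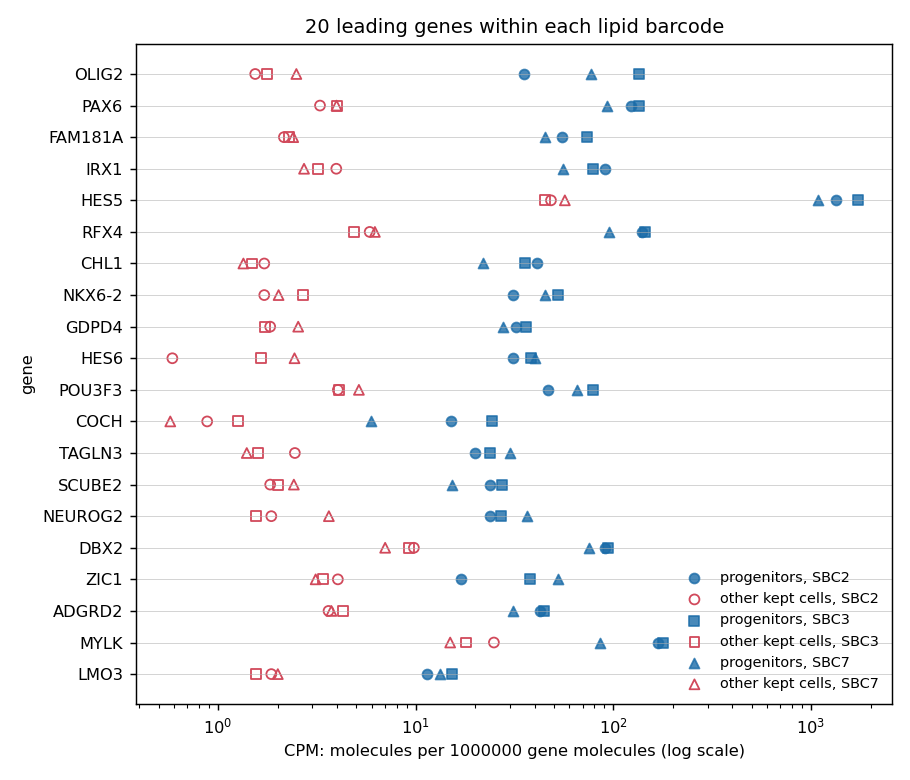
CPM on a log axis for the 20 leading genes, one row a gene. Filled symbols stand for progenitors and open symbols for other kept cells, with a shape for each lipid barcode (SBC2, SBC3, SBC7). Genes were named only where filled symbols lie to the right of the open ones in each barcode, and OLIG2 is spread from 35.4 to 135 CPM in progenitors.

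The 10 genes lowest relative to other kept cells by the same rule were CD248, SOX17, CDH5, ZNF750, EMP1, OVAL, MMRN2, TIE1, EPB42 and GJA5. CDH5, the cadherin of endothelial junctions, stood at 1.53 CPM in progenitors and 24.0 CPM elsewhere. TIE1, an endothelial receptor, stood at 0.196 and 2.69 CPM, and EMP1, an epithelial membrane protein, at 1.64 and 25.6 CPM.

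A list of 20 neural progenitor genes (counted without the SOX genes of the rule) was then read gene by gene. Of its 19 genes with enough molecules, 14 were over 2-fold higher and 0 over 2-fold lower. For this and the other lists read against other kept cells, the shares over all genes tested were 3.3% higher and 10% lower. The median ratio of the neural progenitor list was 3.44. The summed level was 3692 CPM in progenitors and 960 CPM in other kept cells, a ratio of 3.85 (3.82 to 3.87). By barcode it was 3369 CPM in SBC2, 4012 in SBC3 and 3022 in SBC7, so the 3 sets differed less among themselves than from other cells of the same barcodes, which held 726, 870 and 908 CPM. Of the 14 genes, 10 were over 2-fold higher in each barcode. The contrast was smaller with more similar cells. The list summed to 1832 CPM in neural crest cells, and to 2352 CPM in the 177 cells of the same SOX threshold that the TBXT condition removed. Progenitors stood at 1.57 times the level of those TBXT cells (1.55 to 1.59), with 6 of 18 genes over 2-fold higher and 0 over 2-fold lower. Those TBXT cells had a lower SOX sum, with a median of 5.62 against 10.7 per 10000 in progenitors. The 116 progenitors with a SOX sum of 4 to 5 held 2539 CPM of the list, close to the TBXT cells. The part of the SOX level in the ratio of 1.57 was not tested.

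ZIC2, a zinc finger factor of the neural plate, reached 383 CPM with a ratio of 7.30 (7.16 to 7.45). NES, the progenitor intermediate filament nestin, reached 336 CPM with a ratio of 3.44. MSI1, an RNA-binding protein of neural stem cells, reached 360 CPM with a ratio of 2.32. SOX3, another SOXB1 factor, had a ratio of 21.7 (18.2 to 26.0) but stood at only 9.59 CPM. CDH2, the neural cadherin, was within 2-fold at 278 against 173 CPM.

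Notch pathway genes were not uniformly higher: 3 of 13 were over 2-fold higher and 4 over 2-fold lower, with a list median of 0.683. LFNG, which modifies the Notch receptor, had a ratio of 2.05, and HEY2, a Notch target, one of 2.52. DLL4 and HEYL were over 2-fold lower, at 0.150 and 0.304 times the level of other cells. The receptor NOTCH1 stood at 272 CPM against 181 CPM.

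Among genes of neuron formation, 9 of 21 were over 2-fold higher and 4 over 2-fold lower. The proneural factors NEUROG1 and NEUROG2 had ratios of 15.6 and 10.2, and HES6, which promotes neuron formation, one of 15.7. Against neural crest cells the contrast was small for HES6, at 30.7 against 25.2 CPM, and reversed for NEUROG2, at 25.5 against 53.6 CPM. NEUROG2 stood at 23.7 CPM in SBC2, 27 in SBC3, 36.7 in SBC7 and 23.2 without a barcode. Thinned detection of NEUROG2 was 8.21% in progenitors, 0.504% in endothelial-marker cells and 13.4% in neural crest cells. ELAVL4, an RNA-binding protein of neurons, had a ratio of 2.17. TUBB3, the neuronal tubulin, was nearly level at 79.8 against 81.2 CPM (ratio 0.983, 0.950 to 1.02). Of factors of later neurons, the 3 named here were low: ISL2 stood at 3.58 CPM, LHX1 at 2.25 and MNX1 at 5.63. Their ratios were 0.193, 0.193 and 0.124. These ratios do not measure a share of neurons. MNX1 stood at 45.4 CPM in the other kept cells. The TBXT cells among them, at 62.0 CPM, held 443 of their 18177 MNX1 molecules. Which cells held the rest was not tested. Progenitors with NEUROG2 held HES5 in 93.2% of 103 cells (86.5 to 97.2%) and progenitors without it in 81.8% of 1152 (79.4 to 84.0%).

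The next question was how progenitors differed among themselves from dorsal to ventral. PAX7, a dorsal factor, was found in 18.8% of thinned progenitors and 2.27% of endothelial-marker cells. The ventral factor OLIG2 was found in 6.77% and in 0 of 397. In single progenitors PAX7 ran from 0 to 14.2 molecules per 10000 with a median of 0, and a molecule was present in 597 cells. OLIG3, a dorsal factor, had a ratio of 27.7 (21.5 to 35.9) at only 5.73 CPM. WNT1, a roof plate signal, had a ratio of 2.08, and these were the only 2 dorsal genes of 10 that were over 2-fold higher. MSX1 and MSX2, dorsal homeobox factors, were at 142 against 160 CPM and 210 against 407 CPM.

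All 3 genes tested of the intermediate neural tube were over 2-fold higher. DBX2, a homeobox factor of intermediate progenitors, reached 83.0 against 8.76 CPM, and PRDM12 and PRDM13 had ratios of 4.45 and 12.5 at 2.75 and 3.16 CPM. DBX2 stood at 91.1 CPM in SBC2, 93.9 in SBC3, 75.2 in SBC7 and 78.2 without a barcode, a narrower range than that of OLIG2.

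Of 9 ventral genes, 5 were over 2-fold higher and 1 over 2-fold lower. NKX6-2, a ventral repressor, reached 39.9 against 2.33 CPM, a ratio of 17.1 (15.8 to 18.5). FOXA2, a floor plate factor, reached 11.1 against 4.68 CPM. SHH, the ventral signal itself, was lower in progenitors at 25.8 against 84.3 CPM, and NTN1, a floor plate guidance cue, stood at 57.8 against 109 CPM.

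Detection of dorsal and ventral factors in the same progenitor was then counted. After thinning, OLIG2 was found in 2.54% of the 236 progenitors with PAX7 (0.939 to 5.45%) and 7.75% of the 1019 without it (6.19 to 9.57%). PAX3 was found in 33.9% of the progenitors with PAX7 (27.9 to 40.3%) and 11.2% of those without it (9.32 to 13.3%). MSX1 was found in 53.8% and 28.9% of the same cells. NKX6-2 ran the other way, in 2.12% with PAX7 (0.691 to 4.87%) and 11.1% without it (9.23 to 13.2%). Among 85 progenitors with OLIG2, NKX6-2 was found in 40% (29.5 to 51.2%), against 7.18% of the 1170 without it (5.77 to 8.81%). PAX3 was found in 1.18% of the cells with OLIG2 and 16.5% of those without. MSX1 was found in 12.9% of the cells with OLIG2 (6.64 to 22.0%) and 35.1% of those without (32.4 to 37.9%). MSX1 was found in 422 of the 1255 progenitors. It was found together with NKX6-2 in 18, of 118 with NKX6-2, or 0.454 times the number expected from both shares (0.269 to 0.717). With SHH it was found in 11, of 49 with SHH, or 0.668 times the number expected (0.333 to 1.19). NEUROG2 was found in 20.0% of the cells with OLIG2 (12.1 to 30.1%) and 7.35% of those without (5.92 to 9%). SHH was found in 39.0% of 41 progenitors with FOXA2 (24.2 to 55.5%) and 2.72% of the 1214 without it (1.88 to 3.80%). Median depths of the cells with and without each factor lay between 28858 and 33638 molecules.

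Full counts were then summed over progenitors with at least 2 molecules per 10000 of OLIG2 or PAX7. There were 82 with OLIG2, 169 with PAX7, 1 with both and 1003 with neither. These cells were chosen by OLIG2 and PAX7, so those genes are not read further. Of 8056 genes with at least 100 molecules, 80 were over 2-fold higher in the OLIG2 set (0.993%) and 126 over 2-fold higher in the PAX7 set (1.56%). The genes named next were chosen by size of ratio after their values were seen. They came from genes with a symbol and a higher minimum of molecules over both sets than 100.

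NKX6-2 stood at 195 CPM in the OLIG2 set, 0.541 in the PAX7 set and 31.9 with neither. The hedgehog receptor PTCH1, itself a target of the pathway, stood at 425, 110 and 127 CPM, and HHIP, a hedgehog-binding inhibitor that is also a target, at 259, 40.6 and 36.9 CPM. The Notch ligand DLL1 stood at 112, 45.5 and 74.5 CPM, and NTN1 at 117, 39.5 and 55.3 CPM. PRRX1, a limb mesenchyme factor, was 4.15 times higher in the OLIG2 set than in the PAX7 set, but stood at 136 CPM with neither.

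In the other direction, ZIC1 was 24.2 times higher in the PAX7 set, at 190 CPM against 7.83. PAX3 was 11.5 times higher, the guidance cue SEMA3D 10.6 times, ZIC2 7.17 times and MSX1 6.38 times. GAS1, a hedgehog co-receptor, was 6.18 times higher at 208 CPM against 33.7. The WNT ligands WNT3A and WNT4 were 5.28 and 4.42 times higher. For each of these PAX7-set genes, progenitors with neither factor lay between both sets.

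**Figure D3:**
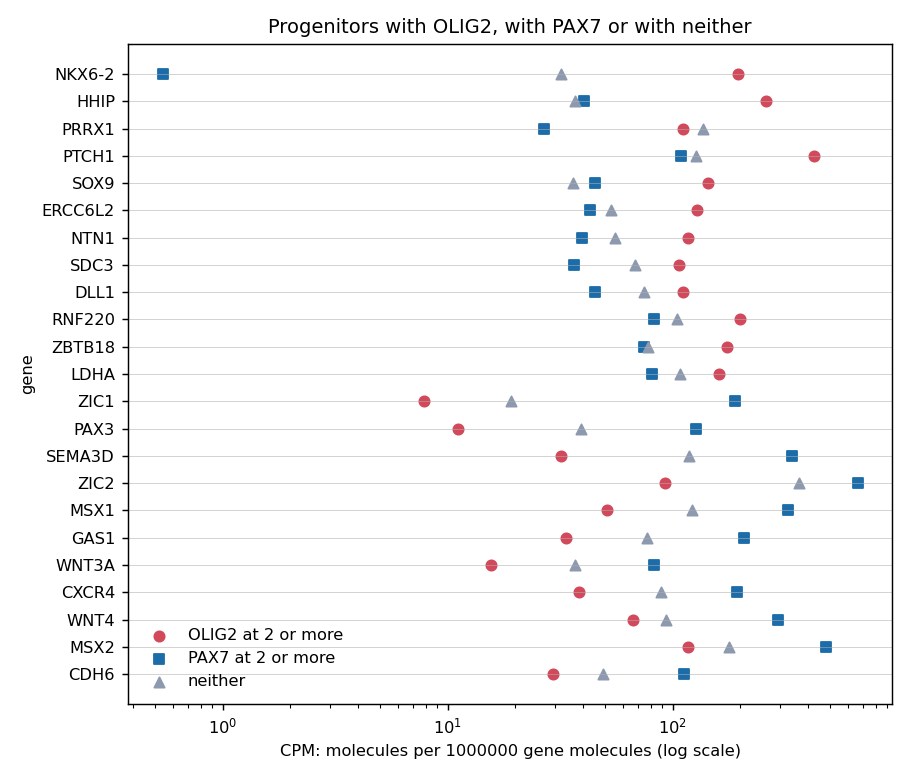
CPM on a log axis for genes with wide ratios between the OLIG2 and PAX7 sets, one row a gene. They came from genes with a symbol and a higher minimum of molecules over both sets than 100. The sets were 82 progenitors with OLIG2, 169 with PAX7 and 1003 with neither. The upper rows, from NKX6-2 to LDHA, are genes higher in the OLIG2 set than in the PAX7 set and the lower rows, from ZIC1 to CDH6, the reverse, with NKX6-2 the widest apart at 195 against 0.541 CPM.

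Hedgehog pathway genes over all progenitors were in part higher: 3 of 11 were over 2-fold higher and 1, SHH, over 2-fold lower. The 3 were the target genes PTCH1, GLI1 and HHIP, with ratios of 2.08, 2.06 and 2.13. The signal transducer SMO stood at 85.1 against 77.2 CPM. None of 19 BMP pathway genes was over 2-fold higher and 8 were over 2-fold lower, among them BMP4 at 78.7 against 257 CPM and BAMBI, a decoy receptor, at 44.1 against 184 CPM. Over all genes tested, 3.3% were over 2-fold higher and 10% over 2-fold lower.

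Of 27 WNT pathway genes, 5 were over 2-fold higher and 7 over 2-fold lower. SFRP2, a secreted WNT antagonist, reached 339 against 60.1 CPM, and stood at 336 CPM in SBC2, 380 in SBC3 and 245 in SBC7. WNT4 had a ratio of 4.02 and the receptor FZD3 one of 2.73. In the FGF list 1 of 17 was over 2-fold higher, the receptor FGFR3 at 104 against 36.0 CPM, and 3 were over 2-fold lower. Of 16 retinoic acid genes 0 were over 2-fold higher and 5 over 2-fold lower. Beside these WNT, FGF and retinoic acid counts, the shares over all genes tested were 3.3% higher and 10% lower. ALDH1A2, which makes retinoic acid, stood at 47.8 against 205 CPM.

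Genes of neural tube closure were mostly level, with 4 of 21 over 2-fold higher and 2 over 2-fold lower. The planar polarity genes VANGL2 and CELSR1 had ratios of 2.38 and 2.34, and MARCKSL1, a regulator of actin, stood at 807 against 383 CPM. PTK7, a polarity co-receptor, was at 188 against 229 CPM. GRHL2 and GRHL3, factors of the surface ectoderm, were the 2 lower genes.

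Of 30 genes of homocysteine and folate metabolism 1 was over 2-fold higher and 0 over 2-fold lower. The shares over all genes tested were 3.3% and 10%, so 1 higher gene is near the general share. The summed level was also close to that of other cells. The sum over all 31 genes of the list present in the data was 2998 CPM in progenitors and 2863 CPM in other cells, a ratio of 1.05. It stood at 2941 CPM in SBC2, 3014 in SBC3 and 2934 in SBC7. The single higher gene was ALDH1L2, a mitochondrial folate dehydrogenase, at 52.2 against 25 CPM. AHCY, which releases homocysteine, stood at 211 against 219 CPM.

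Cell cycle genes stood slightly and evenly higher. None of 24 S phase genes or 25 genes of G2 or M phase passed 2-fold, and the sums were 1.22 and 1.19 times those of other cells. PCNA, the replication clamp, stood at 954 against 791 CPM, and the cyclin CCND1 at 493 against 249 CPM, a ratio of 1.98.

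The nearest cells were the 177 that passed the same SOX threshold but held TBXT at 2 or more molecules per 10000. TBXT marks mesoderm and tail bud, and cells with TBXT and SOX2 include neuromesodermal progenitors, which give rise to spinal cord and paraxial mesoderm. These TBXT cells are counted among the other kept cells above. Their median SOX sum was 5.62 per 10000, against 10.7 in neural tube progenitors, so ratios to them are not matched for SOX level. Their median depth was 35594 molecules. Against them, 316 of 12106 genes were over 2-fold higher in neural tube progenitors (2.61%) and 255 over 2-fold lower (2.11%). The median log2 ratio over genes with a molecule in both was 0.02.

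Tail bud genes were lower in neural tube progenitors: of 17 tested, 11 were over 2-fold lower and 0 over 2-fold higher. The list, TBXT left out, summed to 0.464 times the level of TBXT cells (0.457 to 0.472). FGF8, the tail bud FGF ligand, stood at 50.7 CPM in neural tube progenitors and 478 CPM in TBXT cells, a 9.43-fold difference. Over the progenitor sets FGF8 stood at 61.3 CPM in SBC2, 40.3 in SBC3, 17.1 in SBC7 and 59.9 without a barcode, all below the TBXT cells. CDX4 and CDX2, caudal homeobox factors, were 2.85 and 3.37 times lower, and the ligands WNT3A and WNT5A 4.25 and 2.56 times lower. SP8, a zinc finger factor, and the RNA-binding LIN28A were close to the TBXT cells, at 1.19 and 1.06 times their level.

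Over all genes with a symbol, those lowest relative to TBXT cells were CHRD, WNT8A, MTNR1A, RHOV, SUSD5, MNX1, ADAMTS8, FGF8, TMEM45B and APBB1IP. CHRD, a BMP antagonist, stood at 1.83 against 45.6 CPM and WNT8A at 0.676 against 16.8 CPM. MNX1, a homeobox factor, stood at 5.63 against 62.0 CPM.

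Those highest were HBE1, WNT7A, OLIG2, EMCN, TCF21, TAGLN3, HBBA, GATA4, ZIC1 and SLC1A3. OLIG2 was 7.72 times higher (6.25 to 9.64) and ZIC1 4.89 times higher (3.75 to 6.48). In the 116 progenitors with a SOX sum of 4 to 5, OLIG2 stood at 16.2 against 12.3 CPM in TBXT cells. ZIC1 stood at 65.9 against 7.98 CPM in the same cells. HBE1 and HBBA are haemoglobin genes, EMCN an endothelial gene and TCF21 and GATA4 mesoderm factors. Several of these ratios rested on few molecules in the TBXT cells: 2 for HBE1, 3 for WNT7A (0.420 CPM), 5 each for EMCN and TCF21, and 9 for GATA4. Of the rest, TAGLN3 had the fewest, at 25. The marker list of limb and lateral plate mesoderm was 1.99 times and the erythroid list 2.04 times the level of TBXT cells, and their part in these ratios was not tested.

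Sums of the patterning lists ran in different directions against TBXT cells. The 3 intermediate genes summed to 3.19 times their level and the ventral list to 2.82 times, while the dorsal list summed to 0.686 times (0.667 to 0.706), at 577 against 840 CPM. In the 116 progenitors with a SOX sum of 4 to 5, the intermediate genes summed to 34.6 CPM, against 27.9 in TBXT cells. The ventral list summed to 165 against 84.1 CPM, and the dorsal list to 930 against 840 CPM, the reverse direction. The part of the SOX level in these ratios was not tested. The dorsal sum over all progenitors did not stand for the typical dorsal gene. Of 9 dorsal genes tested against TBXT cells, 3 were over 2-fold higher and 1 over 2-fold lower, with a median ratio of 1.84. PAX6 was 2.89 times and HES5 2.45 times higher. In the progenitors with a SOX sum of 4 to 5, PAX6 stood at 58.2 against 42.7 CPM in TBXT cells and HES5 at 671 against 570 CPM. The FGF receptor FGFR3 was 3.78 times higher, while FGF18 was 5.05 times lower. The hedgehog targets PTCH1, GLI1 and HHIP were 2.44, 2.58 and 2.36 times higher.

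Detection of FGF8 with caudal and patterning factors was also counted among progenitors themselves. FGF8 was found in 136 thinned progenitors, 10.8% of them, against 3.02% of endothelial-marker cells. CDX4 was found in 53.7% of the cells with FGF8 (44.9 to 62.3%) and 24.3% of those without (21.8 to 26.9%), and CDX2 in 16.9% and 5.18%. PAX6 was found in 9.56% with FGF8 (5.19 to 15.8%) and 37.7% without (34.9 to 40.6%). DBX2 was found in 3.68% and 24.5%, and PAX7 in 5.15% and 20.5%. The cells with and without FGF8 had median depths of 30392 and 30702 molecules.

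HOX genes place cells along the body axis, with higher paralogue numbers toward the tail. Relative to TBXT cells, the median ratio was 0.868 over 16 genes of groups 1 to 7, 0.670 over 6 genes of groups 8 and 9, 0.700 over 6 of groups 10 and 11, and 0.483 over 5 of groups 12 and 13. The interval lay below 1 for 10 of the 16 genes of groups 1 to 7 and for all 17 genes of the later groups. HOXC13 was the lowest of groups 12 and 13 at 67.3 against 181 CPM, and HOXD12 stood at 192 against 424 CPM. HOXA2 was highest, at 184 against 143 CPM.

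Against all other kept cells the order differed. HOXB7 was 3.23 times higher (411 against 128 CPM), HOXC13 2.58 times, HOXA2 2.27 times and HOXC12 2.17 times, while HOXA13 was lower at 113 against 294 CPM. HOXB9 was the most abundant HOX gene named, at 874 CPM in progenitors.

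**Figure D4:**
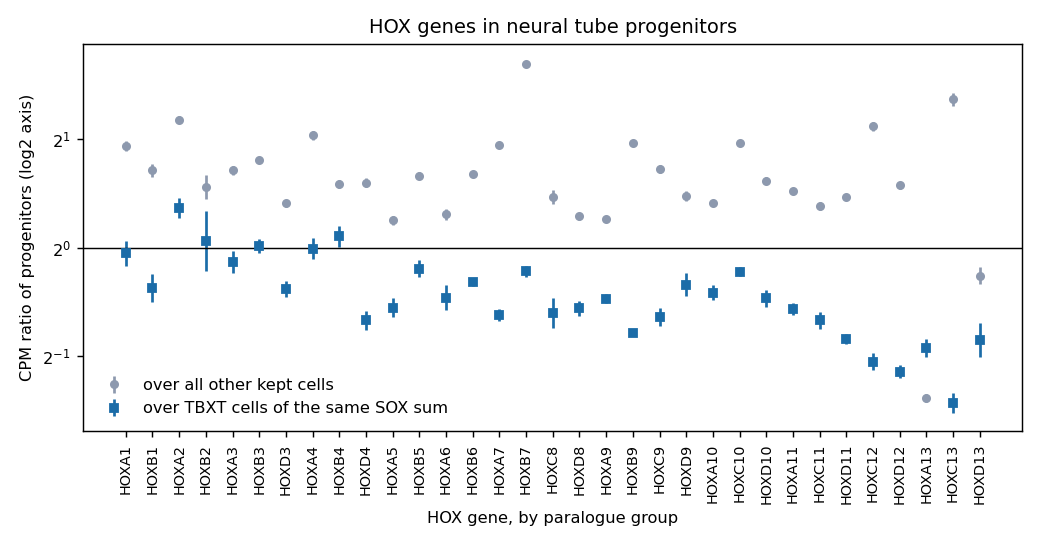
Ratio of CPM in neural tube progenitors to CPM in other kept cells (grey circles) or in TBXT cells (blue squares), on a log2 axis, for HOX genes ordered by paralogue group. Bars are 95% counting intervals. Blue squares lie between 0.629 and 1.29 in groups 1 to 7 and are lowest in groups 12 and 13, at 0.371 for HOXC13.

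Markers of other cell types were read as a check on what else the progenitors held. Of 97 genes on 11 such lists, 72 were over 2-fold lower in progenitors and 3 over 2-fold higher, namely SOX8, FOXA2 and HNF4A. SOX8 was on the neural crest list and stood at 67.3 against 13.3 CPM. All 14 limb and lateral plate genes were over 2-fold lower, summing to 430 against 1874 CPM, with PRRX1 at 121 against 495 CPM. Paraxial mesoderm genes summed to 213 against 848 CPM, and erythroid genes to 531 against 2849 CPM. No list was absent, and no defining marker named here was at 0.

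These lists moved with the SOX sum. That sum chose the cells, so movement along it is no check of their name. From the lowest through the middle to the highest tercile of progenitors by SOX sum, limb and lateral plate genes stood at 837, 279 and 84.2 CPM, and paraxial mesoderm genes at 356, 190 and 56.7 CPM. Of the 11 lists, 10 fell in this order, and the exception was the neural crest list. HES5 was 820 CPM in the lowest and 2068 CPM in the highest tercile, PAX6 67.1 and 202 CPM, and DBX2 39.7 and 147 CPM. OLIG2 was highest in the middle tercile, at 54.6, 152 and 81.7 CPM from the lowest to the highest. PAX7 stood at 88.0 CPM in the lowest and 63.7 CPM in the highest tercile. The lowest tercile had a median depth of 35294 molecules and the highest 28753. The part of other cell types in these levels was not tested.

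**Figure D5:**
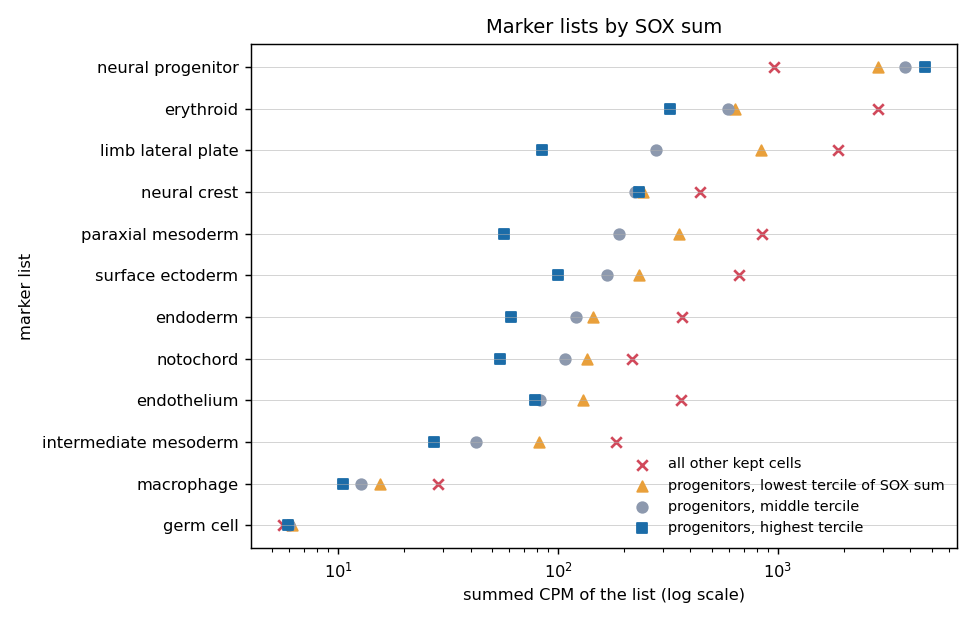
Summed CPM of marker lists on a log axis, one row a list. Crosses stand for all other kept cells, and triangles, circles and squares for progenitors in the lowest, middle and highest tercile of the SOX sum. The neural progenitor list moves right with the SOX sum, while limb and lateral plate genes move left from 837 to 84.2 CPM.

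The genes that varied most among progenitors, by the Fano factor (variance over mean) of thinned counts, were haemoglobin genes. HBBA had a value of 149, and the tenth of cells with the most HBBA held 98.0% of its molecules. The median over 4120 genes was 1.06. OLIG2 followed the haemoglobin genes HBBA, HBZ and HBA1 at 11.3, and then FABP6 at 10.1, with mitochondrial genes below them. Among the others were NTN1 at 7.61, HES5 at 6.29, and the growth factors PTN and MDK at 5.77 and 5.29. MEOX1, a somite gene, had 3.78 and was found in 9.32% of thinned progenitors.

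A lipid barcode was assigned to 412 progenitors (32.8%), against 47.3% of kept cells. Progenitors made up 6.84% of SBC2 cells (82 of 1199), 7.29% of SBC3 cells (261 of 3582) and 6.51% of SBC7 cells (69 of 1060), and the intervals of the 3 shares overlap. They made up 13.0% of cells to which none of the 3 barcodes was assigned (843 of 6495). Median depths of the progenitors were 35335, 42593, 61527 and 27002 molecules in that order. When the highest barcode had to exceed the next 10 times in place of 3 times, SBC7 fell from 16.7% to 1.28% of assigned progenitors, so its cells rest on a weak assignment.

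Of 9504 genes, 101 were over 2-fold higher in SBC7 than in SBC3 progenitors (1.06%) and 78 over 2-fold lower (0.821%). The genes with the widest ratios, chosen after their values were seen, were mesenchyme factors in SBC7 and haemoglobins in SBC3. ALX4 stood at 60.6 against 8.88 CPM, HAND2 at 216 against 58.5 and PRRX1 at 414 against 120. The limb and lateral plate list stood at 831 CPM in SBC2, 395 in SBC3 and 1325 in SBC7 progenitors, and at 2823, 2099 and 2914 CPM in the other kept cells of those barcodes. HBBA stood at 191 CPM in SBC3 progenitors and 26.0 in SBC7, while the erythroid list stood at 6149 and 1812 CPM in the other cells. The part of the other cells in these differences was not tested.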

How the data were processed

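The deposited values were raw counts of molecules for each gene in each cell, made by the authors with the BD Rhapsody whole-transcriptome pipeline on GRCg7b with Ensembl annotation, intronic reads included and the cell number preset, per the file headers. The table held 28190 gene columns and 513117076 gene molecules. Kept cells held 4001 to 198554 molecules (median 29896). Counts were summed over cells and given as CPM. Genes with at least 100 molecules over both groups compared were read, and over 2-fold was the call. No test was run, as there was 1 pooled sample. Ratios have exact conditional Poisson intervals and shares exact (Clopper-Pearson) binomial ones.

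The members and gene lists were chosen with earlier results of these data known. Genes were named by rule: per list, the 5 highest in CPM and the 3 largest and smallest ratios. Over all genes, naming was limited to those with a symbol and at least 1000 molecules. Named were the 20 largest and 10 smallest ratios that ran the same way in each barcode. The 10 largest and smallest ratios against TBXT cells were added. Of the gene columns, 15073 had an Ensembl identifier only and could not be named in this way. A few others named to complete a count or a comparison were chosen after their values were seen. The table held 6 lipid barcode columns, of which only SBC2, SBC3 and SBC7 were read. A lipid barcode was assigned when it exceeded 5 times its background median and 3 times the next. Cells described as without a barcode are all those that failed this assignment, so they can include cells that carry barcodes. NKX6-1 was not analysed here, and OLIG2 took its place as the ventral factor, a choice made after seeing the data. Endothelial-marker cells had CDH5, KDR and PECAM1 at 4 or more per 10000 and a SOX sum under 1. The ratio calls were also run on simulated summed counts with planted changes larger than the 2-fold call. Those counts held Poisson error only and no spread between cells, so they do not show how the calls behave on these data. Alternatives were other depth, mitochondrial and SOX thresholds, thinned cells, cells with several barcodes or over 50000 molecules left out, means over cells, and no gene filter. Python 3.11.15, numpy 2.4.6, scipy and pandas were used. Coordinates are from RefSeq. Some genes that the naming rule selects are not reported here.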

Additional observations from a re-analysis of the deposited data

How the results depend on the processing

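No paired analysis was possible because the table is 1 pooled sample. The progenitor share was 15.6% with at most 10% mitochondrial molecules, 12.5% and 6.93% with a SOX sum of at least 2 and 8, and 9.57% on thinned cells. Genes over 2-fold lower numbered 1091 with the 10% limit. With no gene filter 1845 genes were higher and 5402 lower, where few molecules decide a call. The neural progenitor list ratio was 3.72 with the 10% limit, 3.64 and 4.04 with the SOX sum at 2 and 8, 3.55 on thinned cells, 3.93 as a mean over cells and 4.10 without cells over 50000 molecules, an alternative chosen after seeing the data. The tailbud list ratio was 0.487, 0.454, 0.550, 0.491, 0.445 and 0.420 in that order. The PAX7 share was 15.2% with the SOX sum at 8. With 10 times the next barcode, SBC3 was 76.3% and SBC7 1.28% of assigned progenitors. Of 278 named genes under 9 alternatives, 48 of 58 stayed over 2-fold higher in all and 76 of 93 over 2-fold lower. Among these genes over 2-fold higher or lower, CSF1R alone turned direction, to a ratio of 1.29 with the 10% limit. Named genes within 2-fold were not checked for a turn. The dorsal and ventral shares were not recomputed at 2000 molecules, below the thinning depth. Cell calling, free RNA and doublets limit these values, and 1 sample gives no replicate error.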
